A study of Mus musculus with 6 samples.

Results

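The replication-dependent histone genes were followed in single cells of the inflamed mouse joint. These genes encode the linker histone H1 and the core histones H2A, H2B, H3 and H4. They were taken as every gene of the deposited scRNA-Seq table whose symbol begins with Hist1h, Hist2h, Hist3h or Hist4h, which gave 67 of 20394 genes. The members comprised 6 H1, 18 H2A, 18 H2B, 12 H3 and 13 H4 genes. Of these, 53 were in the Hist1 cluster, 11 in Hist2, 2 in Hist3 and 1 in Hist4. A filter of at least 50 unique molecular identifiers (UMIs) over all cells kept 63 members. The 4 below it were Hist1h1t with 16 UMIs, Hist1h2bq with 16, Hist2h2aa2 with 23 and Hist1h2br with 3.

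Cells copy their chromatin once per division and need new histones for it in S phase, the phase of DNA synthesis. Most histone genes of this family have no introns, are transcribed mainly in S phase, and yield mRNAs that end in a conserved stem-loop and not in a poly(A) tail. The stem-loop is bound by the protein SLBP, which guides processing, translation and decay of the message. Some members also have a more distal poly(A) site, and polyadenylated histone messages are known from cells that have left the cell cycle. The library kit primes on poly(A), so a stem-loop end without a tail is captured poorly, and a UMI here counts 1 captured 3′ end irrespective of transcript length. Levels of different members therefore compare captured ends, and not total message.

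The cells came from C57BL/6 mice bought at 8 weeks of age and housed for at least 2 weeks. All mice, vehicle controls included, were immunized with 10 µg of methylated bovine serum albumin (mBSA) in complete Freund's adjuvant and received 100 µg of mBSA in the knee on day 21, the antigen-induced arthritis (AIA) model. They were then given vehicle (PBS, 2 samples) or 300 µg PEPITEM (4 samples), and CD45+ cells were sorted from digested joints 3 days after the challenge. The barcodes fall into 6 libraries that no label ties to a sample, so vehicle and PEPITEM were not compared and the libraries are values of unknown treatment. The 6 libraries held 2919 to 9345 cells and 47273569 to 123367661 UMIs each, 32953 cells in all, and 138 barcodes occurred in more than 1 library. With the matrix as 1 pooled sample there is no test between groups. Values carry 95% intervals of counting error only, with the range over libraries beside them.

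The conserved ends are shown first, since a kit that primes on poly(A) captures a stem-loop end without a tail poorly. How capture differed between members was not tested. In GENCODE M21 (GRCm38), 65 members were matched, 53 of them on chromosome 13 and 60 with 1 exon. Of the 64 that were annotated as protein-coding, 45 carried a stem-loop 21 to 58 bases after the stop codon (median, 31). In 10 members, Hist1h1b among them, the annotated transcript ended at the stop codon, so a stem-loop could not be found. In Hist1h2af and Hist1h2ah it ended 1 and 2 bases later. In the sequences below the capitals mark the paired stem, and the lower case marks the loop. The same 16 letters as in Hist1h2ap stood in 25 members of the H1, H2A, H2B and H3 types, those of Hist1h4d in 7 H4 members, and those of Hist1h3c in 6 members of the H1, H2B and H3 types.
Hist1h2ap (chr13:21833029-21833044, minus strand): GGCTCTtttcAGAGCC
Hist1h4d (chr13:23581950-23581965, plus strand): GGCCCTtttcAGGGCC
Hist1h3c (chr13:23745047-23745062, minus strand): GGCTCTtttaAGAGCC

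A second kind of end is the poly(A) signal AATAAA, which directs cleavage and polyadenylation of ordinary messages. It stood in the last 50 bases of the annotated transcript in 14 of the 64 protein-coding members (21.9%), against 59.2% of 21877 protein-coding genes read in the same way. The annotated end was that of the longest coding transcript of each gene. For the 10 members annotated only up to the stop codon, a signal beyond it could not be seen. The sequences below are from members whose levels differed little between cycling and other cells, with the signal in capitals. All 3 also held a stem-loop, which lay 840 bases before the transcript end in Hist1h1c, 1643 bases in Hist3h2a and 169 bases in Hist3h2ba.
Hist1h1c (chr13:23740332-23740357, plus strand): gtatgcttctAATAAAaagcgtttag
Hist3h2a (chr11:58956787-58956812, plus strand): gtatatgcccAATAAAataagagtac
Hist3h2ba (chr11:58949497-58949522, plus strand): taatggtattAATAAAtttggttcaa

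Promoters were read from RefSeq (GRCm38.p6) for 58 members, from 250 bases before to 50 bases after the start. On either strand, CCAAT was found in 49 of 58 members, against 37.4% of 32851 promoters, and TATAAA in 33 of 58, against 13.6%. All 6 H1, 16 H2A, 14 H2B and 10 H3 promoters held CCAAT, and 3 of 12 H4 promoters did. The octamer ATTTGCAT, a site bound by POU domain factors, was found in 6 of 16 H2A and 4 of 14 H2B promoters. It was found in no H1, H3 or H4 promoter, against 1.74% of all promoters. Hist1h2ae and Hist1h2bg have overlapping promoter windows and share 1 octamer, as do Hist1h2ah and Hist1h2bk. The H2A and H2B counts are therefore not independent. The 250 bases before the start are printed for Hist1h1b and Hist1h1c, the H1 genes furthest apart in their cycling ratio below, and for Hist1h2ab, an octamer-bearing H2A gene. Capitals mark these motifs on either strand. Hist1h1b and Hist1h2ab held TATAAA, and Hist1h1c did not. The search took exact copies only, so variants of a motif were not counted in any promoter.
Hist1h1b (chr13:21780626-21780875, minus strand): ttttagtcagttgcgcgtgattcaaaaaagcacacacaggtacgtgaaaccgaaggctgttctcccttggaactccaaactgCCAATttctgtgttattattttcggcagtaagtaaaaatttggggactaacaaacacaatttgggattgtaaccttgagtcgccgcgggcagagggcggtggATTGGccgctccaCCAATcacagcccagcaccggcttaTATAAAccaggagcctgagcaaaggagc
Hist1h1c (chr13:23738557-23738806, plus strand): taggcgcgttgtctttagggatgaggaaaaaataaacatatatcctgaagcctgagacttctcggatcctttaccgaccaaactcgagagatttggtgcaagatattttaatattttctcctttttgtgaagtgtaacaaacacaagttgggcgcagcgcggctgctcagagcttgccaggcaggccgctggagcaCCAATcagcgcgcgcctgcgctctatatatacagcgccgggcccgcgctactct
Hist1h2ab (chr13:23750838-23751087, plus strand): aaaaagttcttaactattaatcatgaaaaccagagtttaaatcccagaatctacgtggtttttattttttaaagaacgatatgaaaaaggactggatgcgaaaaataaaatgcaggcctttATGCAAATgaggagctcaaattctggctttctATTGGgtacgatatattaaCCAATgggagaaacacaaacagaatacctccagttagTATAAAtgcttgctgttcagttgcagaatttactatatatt

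Cycling cells were called by at least 2 UMIs of Mki67 plus Top2a, a proliferation antigen and a topoisomerase of dividing cells. This gave 6232 cycling cells (median, 25270 UMIs) and 26721 other cells (median, 9126 UMIs). The family took 0.299% of all UMIs of cycling cells (501528 UMIs, interval 0.2986 to 0.3002) and 0.0355% of those of other cells (113232 UMIs, interval 0.0353 to 0.0357). The ratio was 8.44 (interval 8.38 to 8.49). By library, the share ran from 0.214% to 0.485% in cycling cells (median, 0.324%) and from 0.0266% to 0.0486% in other cells (median, 0.0322%). The ranges did not overlap, and the share was 7.06 to 11.7 times higher in cycling cells in 6 of 6 libraries.

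The family was unevenly spread over cells. A cycling cell held a median of 31 family UMIs from 13 members (quartiles, 8 and 126; highest cell, 851). An other cell held a median of 3 family UMIs from 2 members (highest cell, 130). Counts of at least 100 were found in 1958 cycling cells (31.4%) and in 3 other cells (0.0112%), while 28.9% of cycling cells held fewer than 10. At least 1 family UMI was found in 97.3% of cycling and 82.5% of other cells. With each cell thinned to 3000 UMIs, leaving out 44 cycling and 1472 other cells that were shallower, these shares were 81.0% and 56.6%.

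Of the 63 members that passed the filter, 56 (88.9%) were at least 2-fold higher in cycling cells, against 10.3% of 16705 genes tested in the same way. One member was lower in cycling cells, against 53.4% of all genes. The median ratio was 12.0 over these members and 0.957 over all genes tested. The filter sums the UMIs of both states, for members and all genes alike. Members nearly absent from other cells, such as Hist1h2ah with 10 UMIs there, passed it through cycling cells. For 54 of the 63, the ranges of the 6 libraries did not overlap between cycling and other cells. In 6 of 6 libraries, 57 were higher in cycling cells. Neither count was made over all genes, so no background share stands beside them. Of the 63 members, 17 had a 3′ end that shares no 60-base stretch with another gene, and 13 of these were at least 2-fold higher. The summed ratio of the members without such a copy was 4.38. With cells called by at least 4 UMIs of 27 S phase genes in place of Mki67 and Top2a, the family ratio was 4.82. That gate was not applied to thinned cells.

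**Figure D1:**
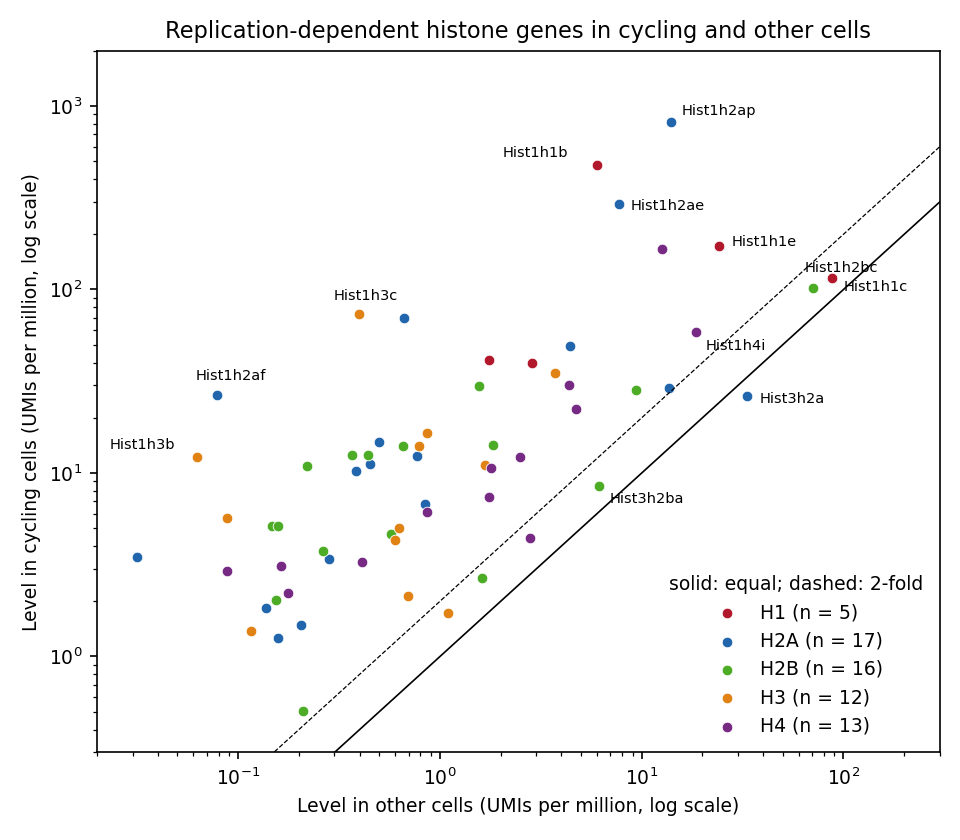
Level of each of 63 members in other cells (horizontal axis) and in cycling cells (vertical axis), in CPM on log scales, colored by histone type. 1 point is 1 member, the solid line marks equal levels and the dashed line a 2-fold difference. Hist3h2a sits below the line of equality, Hist1h1c and Hist1h2bc lie near it at the highest levels of other cells, and Hist1h2ap, Hist1h1b and Hist1h2ae lead the cycling cells.

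A few members made up most of the signal of cycling cells. Hist1h2ap, an H2A gene, was at 148, 733, 743, 841, 910 and 1753 CPM (UMIs of a gene per 1000000 UMIs of the cells) in cycling cells of the 6 libraries, and at 2.35 to 25.6 in other cells. The lowest value was that of library 3 and the highest that of library 1, in both states. Pooled, it was at 821 CPM in cycling cells and 14.01 in other cells, a ratio of 58.6 (interval 56.9 to 60.4). Hist1h2ap took 6.45% of the family UMIs of cycling cells in library 3 and 20.7% to 39.3% in the other 5 libraries. All 60-base stretches of its last 400 transcript bases occur in other genes, most closely Hist1h2ao, and a run of 12 adenines begins 27 bases after its stop codon. Hist1h2ao itself was counted at 1.83 CPM in cycling cells, so the reads of this pair cannot be assigned with certainty. Without Hist1h2ap the family ratio was 6.37.

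Hist1h1b, an H1 linker histone gene, was at 300 to 622 CPM in cycling cells of the 6 libraries (median, 522) and at 3.38 to 9.91 in other cells. Its pooled ratio was 79.8 (interval 76.2 to 83.5). Unlike Hist1h2ap, it was not low in library 3, where it stood at 539. Hist1h2ae, another H2A gene, was at 166 to 529 in cycling cells (median, 299) and at 3.96 to 13.4 in other cells, with a pooled ratio of 38.1 (interval 36.6 to 39.7). These 3 members held 53.1% of the family UMIs of cycling cells and 7.79% of those of other cells.

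The largest ratios were found for members that other cells all but lacked. Hist1h2af, an H2A gene, had 4473 UMIs in cycling and 25 in other cells, a ratio of 341 (interval 231 to 527). The H3 genes Hist1h3b and Hist1h3c followed with 195 (interval 126 to 320) and 186 (interval 156 to 223). Hist1h2ah was 111 times higher (interval 59.8 to 232) and Hist1h2ab 106 times (interval 92.4 to 122), and both encode H2A. In the cycling cells, Hist1h3c stood at 33.1 to 115 CPM over the libraries and Hist1h2ab at 32.3 to 138. All 5 were higher in cycling cells in 6 of 6 libraries, with no overlap. They were named for having the 5 largest ratios, so this direction follows largely from the choice. It lends the ratios no further support. Hist1h2af, Hist1h2ah, Hist1h2ab and Hist1h3b share over 50% of the 60-base stretches of their last 400 bases with another gene, and Hist1h3c shares 49.6%. The single values of all 5 are therefore uncertain.

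The H1 genes differed widely among themselves. Hist1h1a stood at 41.3 CPM in cycling and 1.75 in other cells, a ratio of 23.6 (interval 21.7 to 25.8), and Hist1h1d at 39.95 and 2.86, a ratio of 13.99 (interval 13.05 to 15.01). Hist1h1e stood at 172 and 24.1, a ratio of 7.13 (interval 6.95 to 7.31), and its annotated transcript overlaps that of Hist1h2be on the same strand. Hist1h1c stood at 115 and 87.3, a ratio of 1.32 (interval 1.29 to 1.34). Hist1h1t, known as a testis-specific H1, had 14 UMIs in cycling and 2 in other cells. The first 3 had no overlap between the 6 library values of the 2 states, whereas Hist1h1c did (92.2 to 169 in cycling, 57.3 to 130 in other cells), although it was higher in cycling cells in 6 of 6 libraries. With cells thinned to 3000 UMIs but called by their full counts, the ratio of Hist1h1c was 1.02 (interval 0.973 to 1.07). It was 1.29 (interval 1.22 to 1.36) when cells were called again from the thinned counts, and under 1 with the S phase gate.

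By type, H2A genes held 46.1% of the family UMIs of cycling cells, H1 28.2%, H4 11.01%, H2B 8.55% and H3 6.10%. In other cells the order was H1 34.4%, H2B 26.5%, H2A 21.9%, H4 14.3% and H3 3.01%. At least 2-fold higher in cycling cells were 4 of 5 H1, 16 of 17 H2A, 13 of 16 H2B, 11 of 12 H3 and 12 of 13 H4 members that passed the filter. The summed level of H2A was 17.8 times higher in cycling cells, that of H3 17.1 times, H1 6.92 times, H4 6.50 times and H2B 2.72 times. The place of H2A rested on Hist1h2ap: without it the H2A ratio was 8.81, below that of H3, and H2A held 25.8% of the remaining family UMIs of cycling cells, below H1 with 38.9%. By cluster the summed ratio was 9.88 for Hist1 and 4.51 for Hist2, and the 2 genes of Hist3 together stood at 34.6 CPM in cycling and 39.5 in other cells.

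In other cells, 2 members held 44.4% of the family UMIs, and the same 2 held 7.22% in cycling cells. Hist1h1c led with 27839 UMIs, 24.6% of the family. Hist1h2bc, an H2B gene, followed with 22420 UMIs, 19.8%. Hist1h2bc was at 61.4 to 150 CPM in cycling cells and at 44.5 to 82.3 in other cells, overlapping ranges, and was higher in cycling cells in 5 of 6 libraries (pooled ratio 1.44, interval 1.41 to 1.47). Hist3h2a, an H2A gene, ranked next at 33.3 CPM in other cells and 26.2 in cycling cells, a ratio of 0.785 (interval 0.758 to 0.813). It was lower in cycling cells in 6 of 6 libraries, although the ranges overlapped (16.4 to 44.6 in cycling, 25.01 to 48.4 in other cells). With cells thinned to 3000 UMIs its ratio was 0.774 (interval 0.710 to 0.843) when cells were called by their full counts, and 1.04 (interval 0.938 to 1.14) when they were called again from the thinned counts.

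The other leading members of other cells were higher in cycling cells. Hist1h4i, an H4 gene, stood at 59.0 CPM in cycling and 18.5 in other cells, a ratio of 3.19 (interval 3.09 to 3.30). Hist1h4d stood at 166 and 12.6, a ratio of 13.2 (interval 12.7 to 13.6). Hist1h2be, an H2B gene, stood at 28.2 and 9.36 (ratio 3.01, interval 2.87 to 3.15), and Hist2h2aa1, an H2A gene whose 3′ end occurs in full in another annotated gene, at 29.0 and 13.6 (ratio 2.13, interval 2.04 to 2.22). Hist2h2aa1 was the one of these with overlapping library ranges, and was higher in cycling cells in 5 of 6 libraries.

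A ratio under 2 was found for 7 members, which were Hist3h2a, Hist1h1c, Hist3h2ba (1.37, interval 1.28 to 1.47), Hist1h2bc, Hist2h3c1 (1.59, interval 1.35 to 1.86), Hist4h4 (1.59, interval 1.44 to 1.75) and Hist2h2be (1.67, interval 1.47 to 1.90). The last 2 were named after their values were seen. Hist3h2ba was above 2-fold (2.28, interval 1.96 to 2.64) in thinned cells called again, and under 1 with the S phase gate. Of these 7 members, 6 had AATAAA in the last 50 bases of the annotated transcript, Hist1h2bc being the exception with a spliced transcript of 2 exons and no stem-loop found. The groups of transcript end were set with the ratios known, and are given as a description. The short group includes the members annotated no further than 2 bases after the stop codon, whose true ends could not be seen. The part of incomplete annotation in these groups was not tested. The 11 members with this signal had a median ratio of 1.67 (0.785 to 38.1), the 14 with at least 150 bases after the stop codon and no signal 7.88 (1.44 to 32.95), and the 35 with a shorter end and no signal 19.2 (2.13 to 341). Among the members with a ratio of 10 or more and a matched transcript end, 26 of 33 had the short end and 3 the signal. Hist2h2bb.1, with a ratio of 21.3, had no matched end and was left out. Hist1h2ae was the signal-bearing member with the highest ratio. In other cells, the signal group held 40.3% of the family UMIs and the short group 16.8%, and in cycling cells 15.7% and 61.3%.

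**Figure D2:**
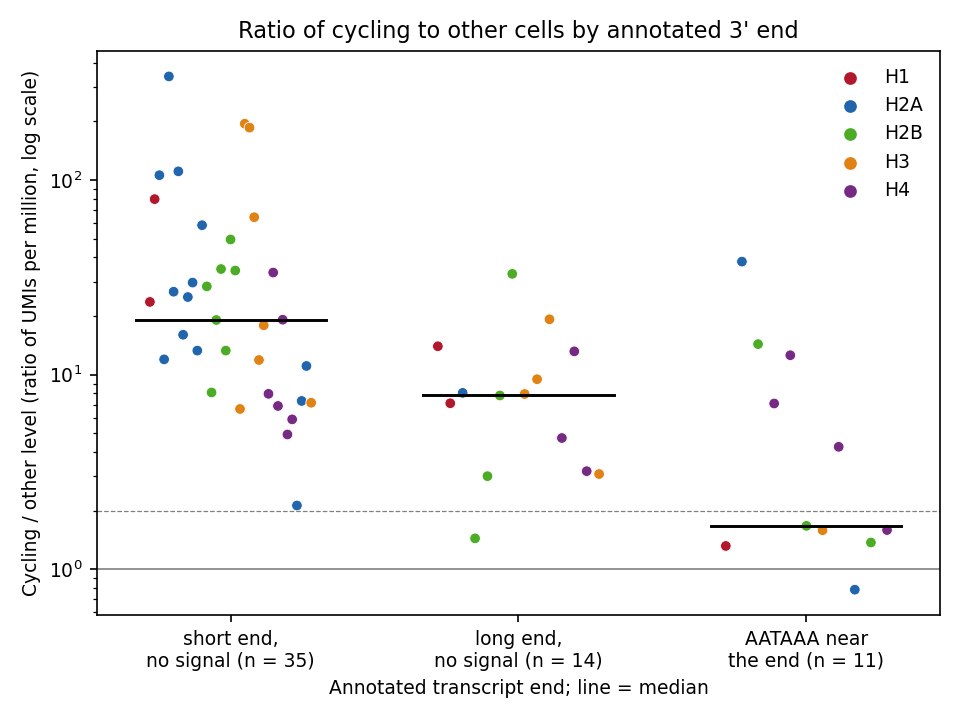
Ratio of the level in cycling over other cells (vertical axis, log scale) for 60 members grouped by annotated transcript end, colored by histone type. 1 point is 1 member and the black line is the median, which is 19.2, 7.88 and 1.67 from left to right. The members below the dashed 2-fold line lie in the group with AATAAA near the end, apart from Hist1h2bc. The short group includes members annotated no further than 2 bases after the stop codon.

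Within the cycling cells, the family was compared with the balance of S phase and G2 and M phase genes. The S share is the UMIs of 27 S phase genes over the sum with 22 G2 and M phase genes, and the cycling cells were divided at its quartiles into 4 parts. From the lowest to the highest S share, the family took 0.244%, 0.425%, 0.362% and 0.137% of UMIs. The second part exceeded the first and the fourth in 6 of 6 libraries. The fourth part, in which at least 76.9% of these UMIs came from S phase genes, had 10.3% of cells with 100 or more family UMIs, against 50.8% in the second. In 10 equal parts the family share was 0.117% in the first and 0.451% in the fourth, and stood at 0.0585% in the last, against 0.0355% in other cells, with the last part above the other cells in 6 of 6 libraries. In the other cells, the share was 0.0317% in 6798 cells with at least 4 S phase UMIs and 0.0382% in 19923 cells with fewer. The former were deeper (medians, 17106 and 7122 UMIs), and the part of depth was not tested.

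**Figure D3:**
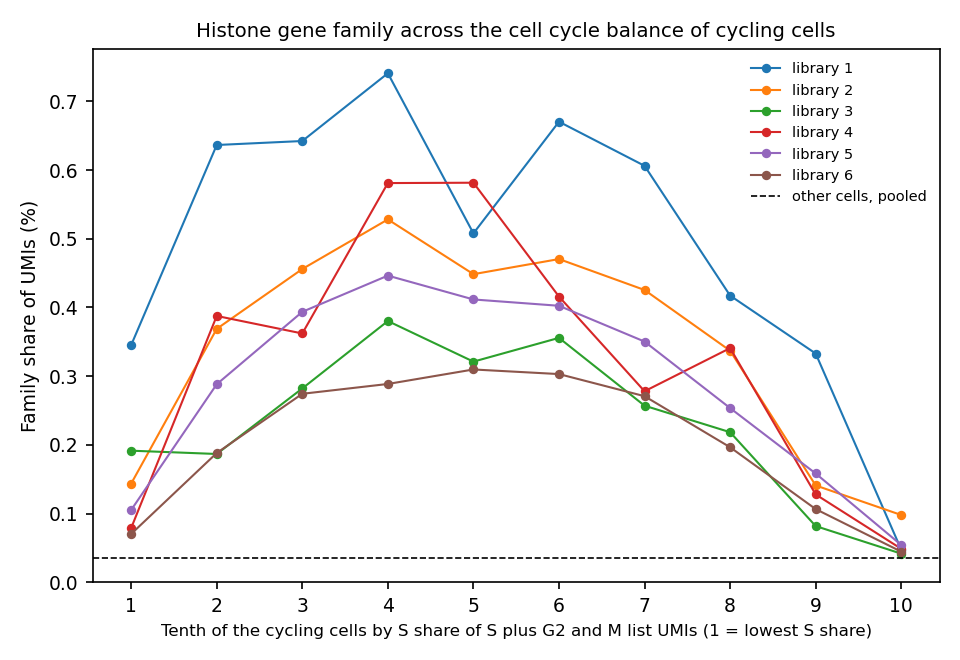
Family share of UMIs in percent (vertical axis) in 10 equal parts of the cycling cells ordered by S share (horizontal axis), with 1 line per library and a dashed line for the pooled other cells. In the 6 libraries the middle parts lie above the last part, where the pooled share is 0.0585%.

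Single members did not follow the same course. Hist1h1b stood at 263, 681, 655 and 243 CPM over the 4 parts, and Hist1h2ap at 572, 1205, 1078 and 328. Hist1h2bc stood at 159, 119, 73.6 and 57.0, highest in the part with the lowest S share in 6 of 6 libraries. Hist1h1c stood at 137, 140, 111 and 69.3, and its first part was above the third and the fourth in 6 of 6 libraries. Hist1h4i and Hist1h1a had their highest value in the third part (76.8 and 61.2), each in 4 of 6 libraries. Of the members in the named set, Hist1h2bc was the one whose first part was above the second in 6 of 6 libraries. The parts also differed in the cell classes defined below. The first held 44.3% of cycling neutrophil lineage-like and 9.28% of granulocyte precursor-like cells, the fourth 10.85% and 32.76%. Hist1h1a stood at 9.18 and 42.9 CPM in the cycling cells of these classes. The part of class make-up in the courses of single members was not tested.

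Cells were next assigned to classes by the share of marker genes detected, and 8 classes had at least 50 cycling cells. These were neutrophil lineage-like (1420 cycling of 12271 cells), granulocyte precursor-like (1444 of 1604), monocyte and macrophage-like (726 of 6769), dendritic cell-like (118 of 830), B lineage-like (958 of 5736), T cell-like (148 of 957), NK cell-like (57 of 304), and stem and progenitor-like (187 of 420). Most markers of the first 7 classes were highest in their own class, in the same order 11 of 12, 6 of 7, 15 of 18, 10 of 10, 12 of 14, 11 of 11 and 7 of 7. The count was 3 of 7 for the stem and progenitor-like class, where Cd34, Hlf, Gata2 and Kit were higher elsewhere. The same markers had assigned the cells, so these counts follow largely from the assignment and are no check of it. The family was at least 2-fold higher in cycling cells in 8 of 8 classes. The ratio was lowest in stem and progenitor-like cells (4.41, interval 4.21 to 4.64) and granulocyte precursor-like cells (4.77, interval 4.57 to 4.97), and highest in T cell-like cells (11.1, interval 10.6 to 11.7). By library the ratio ran from 5.77 to 12.9 in the T cell-like class and from 2.74 to 5.87 in the stem and progenitor-like class, which overlapped. It also overlapped the 3.08 to 12.9 of the neutrophil lineage-like and the 6.11 to 10.2 of the B lineage-like class. The granulocyte precursor-like class had at least 10 other cells in 4 libraries.

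Members at least 2-fold higher in cycling cells numbered 53 of 61 tested in neutrophil lineage-like cells, against 14.9% of all genes tested there, and 50 of 62 in granulocyte precursor-like cells, against 5.83%. The counts were 43 of 50 in monocyte and macrophage-like cells (all genes, 5.25%), 21 of 26 in dendritic cell-like cells (5.76%) and 57 of 60 in B lineage-like cells (12%). They were 29 of 31 in T cell-like cells (6.44%), 14 of 18 in NK cell-like cells (7.8%) and 26 of 29 in stem and progenitor-like cells (5.31%). The filter of 50 UMIs sums both states of a class, so some members were tested only through their cycling cells. Hist1h2ab in NK cell-like cells, at 85.7 against 0.459 CPM, was such a member. Of 18 members with at least 50 UMIs in every one of the 8 classes, 13 were at least 2-fold higher in all of them, against 1.71% of genes.

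**Figure D4:**
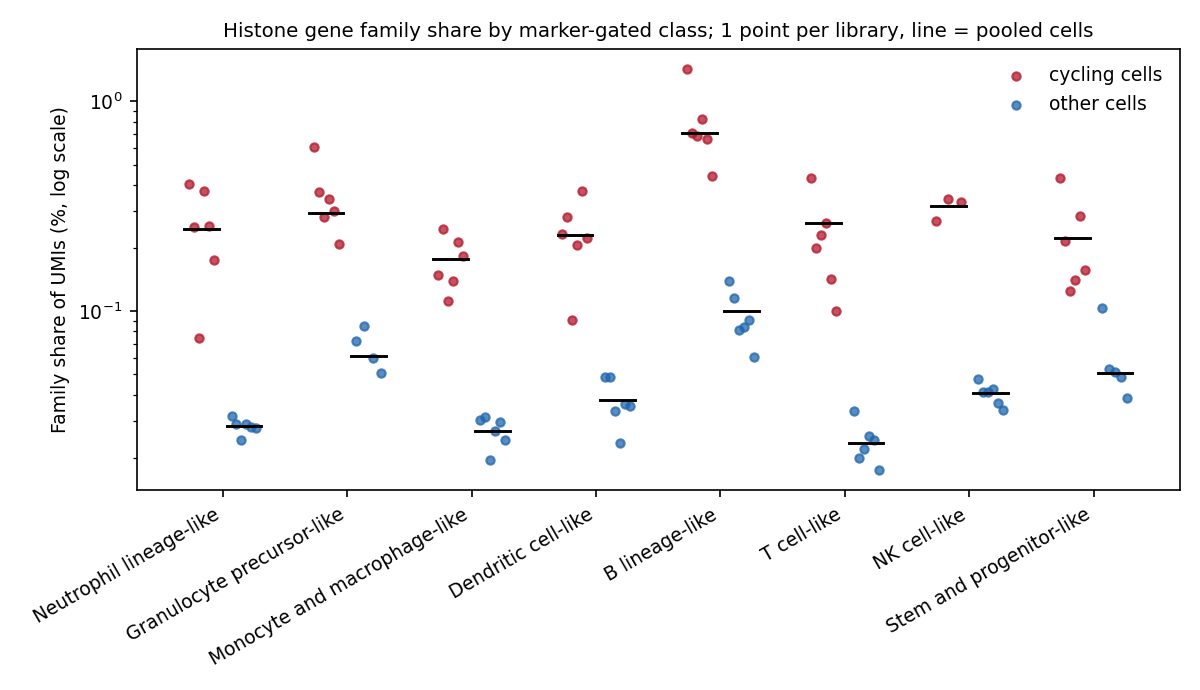
Family share of UMIs in percent (vertical axis, log scale) in cycling (red) and other (blue) cells of 8 marker-gated classes. 1 point is 1 library with at least 10 such cells, and the black line is the pooled value. In each class the red points lie above the blue points, and B lineage-like cells have the highest pooled share in both states.

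The B lineage-like class held the largest family share in both states. In cycling cells it was 0.709% (interval 0.704 to 0.713; libraries 0.442% to 1.42%), against 0.178% to 0.317% in the other 7 classes. In each library with values, it was above every other class in cycling cells. In other cells it was 0.0997% (interval 0.0986 to 0.101; libraries 0.0605% to 0.139%), against 0.0236% to 0.0614% in the other 7, and was above each of them in every library but for the granulocyte precursor-like class (3 of 4 libraries; 4 of 4 without Hist1h2ap). B lineage-like cycling cells were also shallower, with a median of 13874 UMIs against 28244 in the neutrophil lineage-like and 31289 in the granulocyte precursor-like class. As family UMIs per cycling cell, the means were 114, 75.5 and 94.5, a smaller difference than that of the shares. Among other cells, the B lineage-like mean was 5.99 family UMIs per cell. This was below 14.1 in granulocyte precursor-like and 8.29 in stem and progenitor-like cells. The remaining compared classes had lower means, up to 5.77 in dendritic cell-like cells. The median depths of the first 3 were 5401, 22636 and 15919 UMIs. The part of cell size in the share was not tested.

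In B lineage-like cycling cells, 59 of 63 members were at least 2-fold higher than in the cycling cells of the other 7 classes together, against 25.3% of genes. The median ratio was 2.97 over members and 1.30 over all genes tested. In other cells it was 42 of 51 members, against 33.4% of genes. The difference was uneven between members. Hist3h2ba, an H2B gene of the Hist3 cluster, stood at 61.0 against 2.66 CPM in cycling cells, 22.9 times higher (interval 20.1 to 26.2). In other cells it stood at 41.0 against 2.44, 16.8 times higher (interval 15.2 to 18.6). The 7 classes were pooled by UMIs and differed among themselves. Hist3h2ba stood at 15.1 CPM in cycling and 19.1 in other dendritic cell-like cells, and at 0.849 and 0.680 in neutrophil lineage-like cells. Hist1h1a was 6.75 times higher in cycling cells (180 against 26.7) and 12.8 times in other cells (10.7 against 0.835). Hist3h2a was 5.20 times higher in cycling cells (96.8 against 18.6), and Hist1h2ae 4.35 times (967 against 222). In dendritic cell-like cells, Hist3h2a stood at 37.4 CPM in cycling and 76.1 in other cells. Hist1h4d was 1.93 times higher (297 against 154) and Hist1h1c 1.88 times (201 against 107). Each of these members was higher in B lineage-like cycling cells in 6 of 6 libraries.

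The members with a flat ratio differed in direction between classes. Hist1h1c stood at 201 CPM in cycling and 263 in other B lineage-like cells, a ratio of 0.765, and was higher in cycling cells in 2 of 6 libraries. In neutrophil lineage-like cells it stood at 121 and 81.8, a ratio of 1.47, and was higher in cycling cells in 5 of 6 libraries. Hist1h1c was at least 2-fold higher in none of the 8 classes and had a ratio under 1 in 3 of them. Hist3h2a had a ratio under 1 in 5 of 8 classes. In B lineage-like cells the ratio was 0.695 (higher in cycling cells in 1 of 6 libraries). In stem and progenitor-like cells it was 2.11 (3 of 5 libraries). Hist1h2bc stood at 80.5 and 78.9 in neutrophil lineage-like cells, a ratio of 1.02 (higher in cycling cells in 3 of 6 libraries). In B lineage-like cells it stood at 211 and 102, a ratio of 2.08 (5 of 6). Its ratio was under 1 in granulocyte precursor-like cells (0.810, higher in 1 of 4 libraries) and NK cell-like cells (0.830, 1 of 3). No test of the difference between classes was made.

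**Figure D5:**
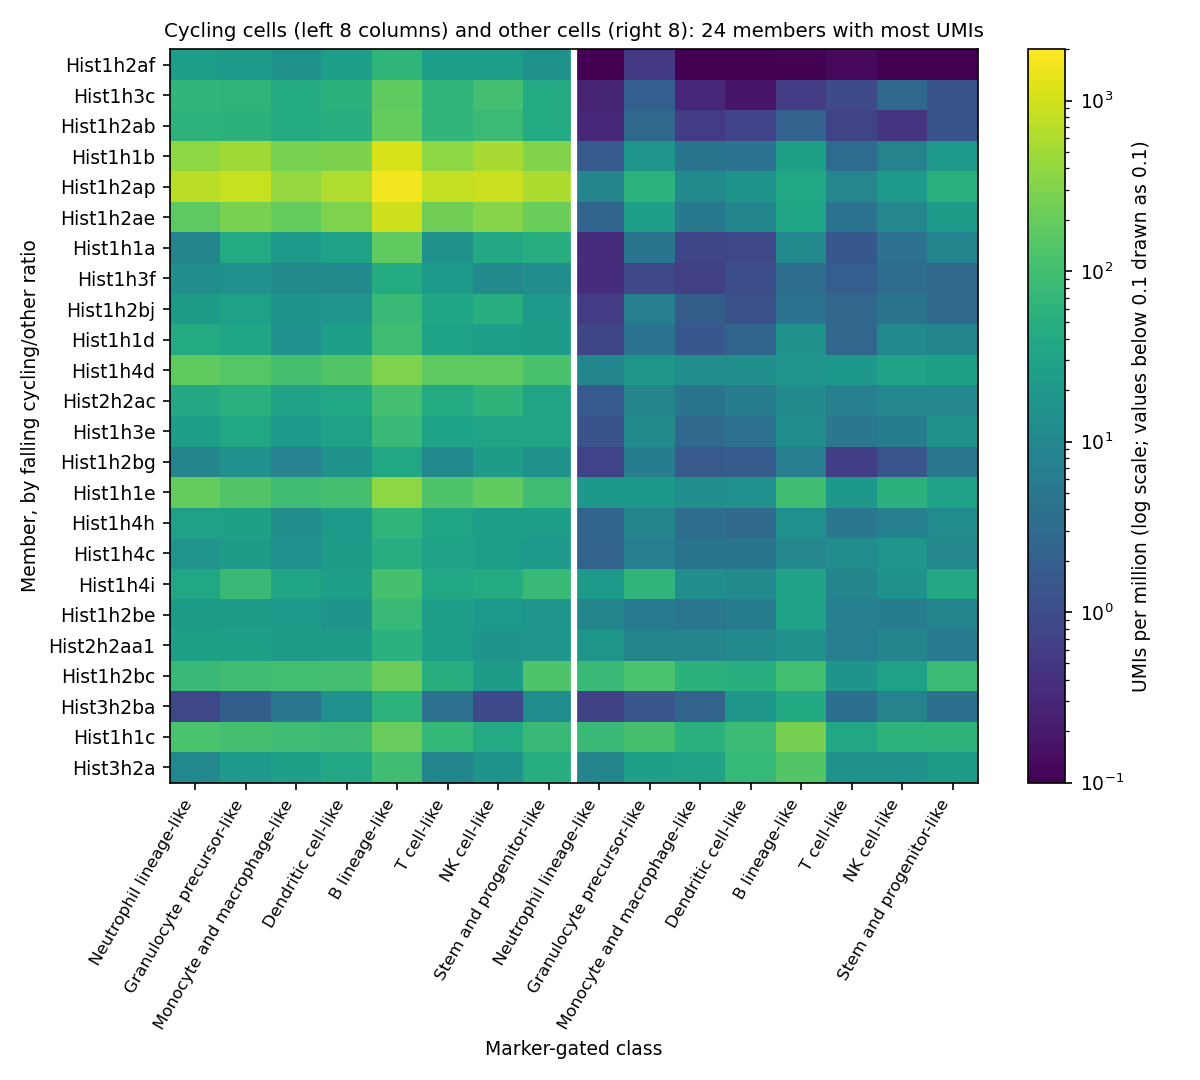
Level of the 24 members with most UMIs (rows, ordered by falling cycling over other ratio) in 8 classes (columns), cycling cells left and other cells right of the white line. Color is CPM on a log scale, with values below 0.1 drawn as 0.1. The upper rows are bright on the left and dark on the right, while Hist1h1c, Hist1h2bc and Hist3h2a at the bottom are bright on both sides in several classes, with ratios from 0.491 (Hist3h2a in dendritic cell-like cells) to 3.12 (Hist1h2bc in T cell-like cells).

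Within the other cells of 2 classes, the members differed by the markers of maturation. These marker pairs were chosen with the values known. Rag1, a recombinase gene of developing B cells, and Ms4a1, which encodes the mature B cell antigen CD20, split the B lineage-like other cells into 1467 cells with Rag1 alone and 2215 with Ms4a1 alone. The family stood at 1315 CPM with Rag1 (libraries, 730 to 2258) and 706 with Ms4a1 (471 to 977), overlapping ranges at a like depth (medians, 5295 and 5608 UMIs). Hist1h1c stood at 388 and 146 CPM, with library ranges of 242 to 831 and 72.0 to 207 that did not overlap. Hist3h2ba stood at 57.8 and 23.4, with ranges of 42.9 to 65.5 and 10.9 to 30.7 that did not overlap, and Hist3h2a at 153 and 114, with ranges that did.

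In the neutrophil lineage-like other cells, Ltf marks cells that make secondary granules and Cxcr2 encodes a chemokine receptor of mature neutrophils. The family stood at 215 CPM in 1016 cells with Ltf alone and 420 in 4678 cells with Cxcr2 alone, and the library ranges did not overlap (191 to 237, and 358 to 435). Hist1h2bc stood at 32.8 with Ltf (libraries, 19.8 to 35.8) and 161 with Cxcr2 (135 to 193). Hist1h4i stood at 12.5 (9.89 to 13.1) and 34.4 (29.8 to 37.7). Hist1h1c stood at 70.5 and 115, and its ranges of 38.7 to 98.9 and 100.2 to 133 lay just apart. Hist1h4d went the other way, at 12.5 with Ltf and 3.63 with Cxcr2 (7.38 to 20.02, and 1.62 to 5.30). Hist1h1b stood at 2.30 and 2.23 in these 2 sets. The cells with Cxcr2 alone were shallower (median, 5028 against 11198 UMIs), and the part of depth was not tested.

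Thinned to 3000 UMIs, Hist1h2ap was found in 50.6% of cycling and 4.01% of other cells (unthinned, 70.9% and 11.2%), and Hist1h1b in 42.5% and 2.14% (61.8% and 5.02%). Hist1h1c was found in 25.02% and 19.4% (68.0% and 37.4%), and Hist1h2bc in 21.3% and 17.4% (58.9% and 34.7%). In neutrophil lineage-like other cells, whose mature forms do not divide, Hist1h2ap was found in 2.10% of thinned cells and Hist1h2bc in 22.1%. In B lineage-like other cells these shares were 9.11% and 17.9%. The level of Hist1h2bc ran the other way, at 78.9 CPM in neutrophil lineage-like and 101.5 CPM in B lineage-like other cells, so no order of these classes was read from its share of cells.

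The table also stores entries with the value 0, which a sparse table would leave out. Among member entries these made up 1.49% in cycling cells and 5.49% in other cells, against 1.68% over all genes and cells. The authors corrected the counts for ambient RNA, and the part of that correction in the levels of other cells was not tested.

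Genes that act on the family were read in the same contrast. Slbp, which encodes the stem-loop binding protein, stood at 177 CPM in cycling cells and 52.7 in other cells, a ratio of 3.35 (interval 3.28 to 3.41), with library ranges of 132 to 194 and 48.7 to 58.0. Of 16 tested genes of histone mRNA processing and regulation, 7 were at least 2-fold higher in cycling cells and 1 was lower (median ratio, 1.88). Over all genes tested, 10.3% were at least 2-fold higher and 53.4% were lower, with a median ratio of 0.957. Npat, a coactivator of histone transcription, had a ratio of 2.39, Casp8ap2 2.41, and Eri1, an exonuclease that trims histone mRNA, 2.45. Lsm10, of the U7 particle that cleaves these messages, had a ratio of 0.797, and Lsm11 of the same particle 2.38.

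Of 14 histone chaperone and assembly genes, 10 were at least 2-fold higher in cycling cells (all genes, 10.3%) and 2 were lower (all genes, 53.4%), with a median ratio of 2.59. Asf1b had a ratio of 43.7 (84.4 against 1.93 CPM), Chaf1a, the large subunit of chromatin assembly factor 1, 21.1, and Hirip3 9.999. Hira and Daxx, which serve deposition outside replication, had ratios of 1.79 and 0.667. Of 11 histone variants listed as replication-independent, 6 were at least 2-fold higher (all genes, 10.3%) and 1 was lower (all genes, 53.4%). Their median ratio was 2.26. H2afx, the H2A variant of the DNA damage response, had a ratio of 20.8, H2afz 3.16 and Cenpa, the centromeric H3, 3.87. H3f3a and H3f3b, which encode H3.3, had ratios of 1.17 and 0.943 and stood at 1707 and 2002 CPM in other cells. All 27 S phase genes and all 22 G2 and M phase genes were at least 2-fold higher (all genes, 10.3%), with median ratios of 12.99 and 40.5. The lists overlap, with Slbp also among the S phase genes and Cenpa also among the G2 and M phase genes. Cycling cells were called by genes of dividing cells, so the rise of S phase and of G2 and M phase genes largely follows from the gate.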

How the data were processed

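Droplet libraries were made by the authors with 3′ chemistry (10x Genomics, v3.1). They aligned reads to mm10 with Cell Ranger 7, removed ambient RNA (SoupX) and doublets (DoubletFinder), and filtered cells in Seurat. Strand setting and annotation are not given in the sources used here. They deposited 1 table of whole-number UMI counts of 20394 genes in 32953 cells. It was used unscaled, and no doublet caller was run. Its depth of 47273569 to 123367661 UMIs per library sets the precision. No label ties the 6 barcode numbers to the samples, so the treatments were not compared. Members, lists and tests were chosen with earlier results of these data known.

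UMIs were summed over cells (Python 3.11.15, numpy 2.4.6, scipy 1.17.1, pandas 2.3.3, matplotlib 3.10.9) and given per 1000000 UMIs (CPM). Intervals (95%) were exact Poisson for levels, exact conditional binomial for ratios and Wilson for shares of cells. A class needed at least 3 markers detected, and a share of its markers at least 1.25 times that of the next class. Cells that met no class (3548) entered only the totals. Calls were a ratio of at least 2 or under 1 among genes with at least 50 UMIs, without Mki67 and Top2a, and in comparisons of the B lineage-like class without its markers. Fold calls and ratio intervals were tried on Poisson counts simulated for pooled totals, which hold no variation between cells or libraries. Named members were the 10 with most UMIs in each state, the 5 largest and 5 smallest ratios, and every H1 gene. Hist2h2bb stands for more than 1 annotated gene and was not matched. Transcripts were from GENCODE M21 and promoters from RefSeq. Other gates, thinning, weights, filters and libraries left out were tried as alternatives.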

Additional observations from a re-analysis of the deposited data

How the results depend on the processing

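The family ratio of 8.44 stayed above 1 under each alternative. It was 7.03 with a gate of at least 1 UMI, 9.49 with at least 4 UMIs and 4.82 with the S phase gate. It was 9.12 with cells thinned to 3000 UMIs and called again from the thinned counts, which left 3588 cycling cells. When thinned cells were called by their full counts, cycling cells held a mean of 9.369 family UMIs and other cells 1.375. The family ratio was 9.15 with equal weight for each library and 8.60 without the cells of highest UMI counts. It ran from 8.12 to 9.10 with 1 library left out. Added after seeing the data, it was 7.72 with other cells of at most 2 S phase UMIs, 6.37 without Hist1h2ap, and 4.38 over members with no copy of their 3′ end, for which 13 of 17 members were at least 2-fold higher. The share of the family UMIs of other cells held by Hist1h1c (24.6%) was 25.01%, 24.04%, 25.96% and 22.7% under the first 4 of these alternatives, 23.9% to 25.5% with 1 library left out, and 27.0%, 25.6% and 34.6% under the added ones in that order. Members lower in cycling cells numbered 3 with the S phase gate (Hist3h2a, Hist3h2ba and Hist1h1c), 0 with thinned cells called again and 2 with a filter of 10 UMIs (Hist2h2aa2 added). The count of classes was 8 of 8 under every alternative run. Leaving out barcodes found in more than 1 library moved none of the 5 results beyond its interval or count. No paired test was run, although each library holds both cycling and other cells. The libraries are tied to no sample, so the comparisons of cycling and other cells within each library are given as counts. Depth limits Hist1h1t, Hist1h2bq, Hist1h2br and Hist2h2aa2, with under 50 UMIs each.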

Other observations

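Cells outside the 8 compared classes gave these values, with no comparison drawn. In 123 other cells of the type 2 innate lymphoid-like class the family took 0.0218% of UMIs (interval 0.0189 to 0.0250), in 174 of the mast cell-like class 0.0285% (interval 0.0250 to 0.0323), and in 129 of the fibroblast-like class 0.0184% (interval 0.0166 to 0.0204). The cells that met no class held 1124 cycling cells with a share of 0.267% and 2424 other cells with 0.0303%.

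By library, in the order of the barcode numbers 1 to 6, the family share of cycling cells was 0.485%, 0.358%, 0.229%, 0.346%, 0.301% and 0.214%. Without Hist1h2ap it was 0.310%, 0.284%, 0.214%, 0.255%, 0.228% and 0.130%. The part of Hist1h2ap in the family was 36.1%, 20.7%, 6.45%, 26.3%, 24.3% and 39.3%. Library 3 had the smallest part in cycling cells, and again in other cells, where it was 0.883% against 2.97% to 6.18% elsewhere. The cause was not tested.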
